A study of Arabis alpina with 9 samples.

Results

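The bud dormancy genes DRM2, DYL1 and BRC1 were followed in the eop089 mutant of Arabis alpina. They were selected on the authors' test of mutant against control, because the authors' lists of genes that differ between the mutant and its control pair an Arabis gene with the Arabidopsis codes AT2G33830 (DRM2), AT1G28330 (DYL1) or AT3G18550 (BRC1). The 3 members are 3 of 34220 gene entries counted, and of 1079 listed gene IDs with an Arabidopsis code. Each code matched 1 Arabis gene with 1 counted entry, Aa_G438760 for DRM2, Aa_G430660 for DYL1 and Aa_G104730 for BRC1, and all 3 passed the filter on low counts. The study asks how flowering is regulated by AaTFL1 in Arabis alpina, a perennial crucifer related to Arabidopsis, in which TFL1 represses flowering. RNA came from 3 groups of eop089 plants of the accession Pajares in long days: dissected shoot apices at 3 weeks, dissected shoot apices at 5 weeks, and the fifth and the sixth leaf at 5 weeks. Each group had 3 libraries, all from the mutant, which the labels give by its line name alone, and control libraries were not analysed here. The hour of harvest is not given in the labels.

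DRM2 and DYL1 (also called DRM1) encode small proteins of the dormancy/auxin associated family, whose transcripts are high in resting buds and fall when buds begin to grow. BRC1 encodes a TCP transcription factor that acts inside axillary buds and holds back their outgrowth. In Arabidopsis it activates genes for the homeodomain proteins HB21, HB40 and HB53, which raise NCED3, a gene of abscisic acid synthesis. Transcripts of the DRM family also rise in darkness and when sugar is short, together with genes of amino acid and sugar turnover.

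The libraries held between 11859813 and 13382460 counts in genes, and between 22212 and 23176 gene entries had at least 1 count. Reads outside genes were 10.7% to 11.01% of the total at the 3-week apex, 13.9% to 16.3% at the 5-week apex and 7.94% to 8.30% in the leaf. Any 2 replicates of a group differed by more than counting noise, with a chi-square per degree of freedom between 1.66 and 10.7, so each was kept as a sample. The highest of these values, 10.7, lay between replicates 1 and 2 of the 5-week apex. The labels do not say whether replicates are separate plants, so p-values measure only how these samples vary, and that spread may be technical. CPM here is edgeR's count per library size after TMM scaling.

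All 3 genes were listed higher in the mutant than in the control at the 3-week apex, and these folds, by which they were chosen, are given as a description. The lists hold folds of at least 2 with adjusted p-values up to 0.0498, and genes outside them were not analysed here for that difference. In the authors' deposited table for the 3-week apex DRM2 had a fold of 10.72, a mutant mean of 2883.73 normalised counts and the smallest adjusted p-value of the 242 genes listed higher (4.46e-151). The authors' deposited table gave DYL1 a fold of 3.48 on 4328.27 normalised counts in the mutant, and BRC1 a fold of 3.57 on 49.98. The 242 genes make up 1.06% of the 22764 genes with at least 10 counts or a place in a list. By fold alone DRM2 stood in place 11, BRC1 in place 67 and DYL1 in place 73 of the 242, in the authors' deposited table.

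The later samples listed fewer of the genes. At the 5-week apex 1 of the 3 was listed, DRM2, with a fold of 8.53, a mutant mean of 396.1 and again the smallest adjusted p-value of the list, of 66 genes (0.29% of the genes above), in the authors' deposited table. Whether the fold of DRM2 differed between the ages was not tested. In the leaf 2 of the 3 were listed, among 397 genes listed higher (1.74%), and the authors' deposited table gave DRM2 a fold of 10.79 and DYL1 a fold of 6.45. The mutant means there were 202.41 for DRM2 and 1082.59 for DYL1. BRC1 was listed at the 3-week apex alone, and whether its difference from the control changed with age or organ was not tested. No member was in the lists of lower genes, which held 0.373% of genes for the 3-week apex, 0.22% for the 5-week apex and 3.52% for the leaf. The authors' mutant means were 0.887 to 1.01 times the mean raw counts of the libraries described next, so both describe the same samples.

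DRM2 was far higher at the 3-week apex than in the other groups. Its level in replicates 1, 2 and 3 of the 3-week apex was 183, 219 and 185 CPM. At the 5-week apex it was 44.7, 18.1 and 24.8 CPM, and in the leaf 18.3, 13.7 and 34.2 CPM. The 3-week apex lay apart from both other groups, whereas the 5-week apex and the leaf overlapped. Within the older groups DRM2 varied widely, with a coefficient of variation of 47.3% at the 5-week apex and 48.6% in the leaf, against 10.2% at the 3-week apex. Replicate 1 was the highest of the 5-week apex and replicate 3 the highest of the leaf.

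DYL1 stepped down through the groups with less spread. Its level was 281, 315 and 286 CPM at the 3-week apex, 162, 142 and 167 CPM at the 5-week apex, and 103, 110 and 140 CPM in the leaf, in the order of the replicates. None of these ranges overlapped, although leaf replicate 3 lay just below the lowest 5-week apex library. As for DRM2, replicate 2 was the highest of the 3-week apex and replicate 3 the highest of the leaf.

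BRC1 was scarce in every library, with 9 to 75 counts. Its level was 2.74, 5.11 and 2.33 CPM at the 3-week apex, 2.45, 3.14 and 3.04 CPM at the 5-week apex, and 1.44, 3.82 and 1.00 CPM in the leaf. All 3 groups overlapped. Leaf replicate 2, with 36 counts (95% exact Poisson interval 25.2 to 49.8), lay above leaf replicates 1 and 3, with 13 (6.92 to 22.2) and 9 (4.12 to 17.1). These intervals cover counting error only. At the 3-week apex replicate 2 was the highest, as for the other 2 genes.

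**Figure D1:**
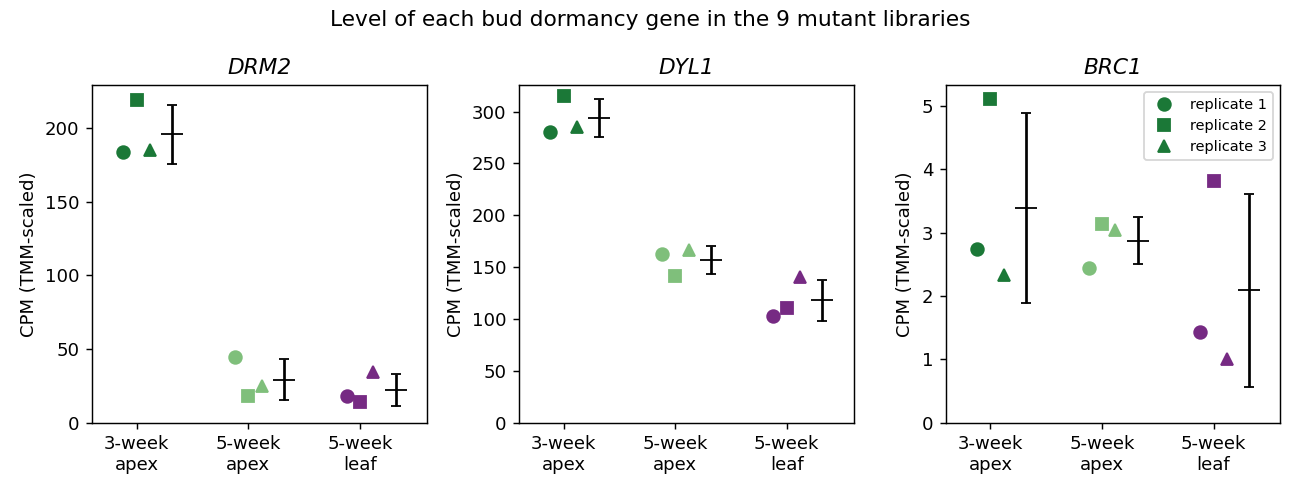
Level of DRM2, DYL1 and BRC1 (CPM, TMM-scaled, linear axes from 0) in each mutant library, with the group mean and SD (n = 3) as a black bar beside the points. For DRM2 the 3-week apex libraries sit between 183 and 219 CPM and all other libraries between 13.7 and 44.7, the DYL1 groups step down without overlap, and the BRC1 groups overlap.

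From 3 to 5 weeks DRM2 and DYL1 fell in the mutant apex, and no change of BRC1 passed the test. DRM2 went from 196 ± 20.04 to 29.2 ± 13.8 CPM (mean ± SD, n = 3 each), a 6.69-fold decrease. Its log2 fold change was -2.74 with an SE of 0.25 (edgeR quasi-likelihood F-test, p adjusted by the Benjamini-Hochberg method over all genes = 7.85e-07). DYL1 went from 294 ± 18.5 to 157 ± 13.4 CPM (SD, n = 3 each), a 1.87-fold decrease, or -0.91 on the log2 scale (SE 0.10; edgeR adjusted p = 4.09e-06). BRC1 went from 3.39 ± 1.5 to 2.88 ± 0.371 CPM (SD, n = 3 each), or -0.24 on the log2 scale (SE 0.35; edgeR adjusted p = 0.621) whose approximate 95% interval ran from -0.92 to 0.45. Of the 20633 genes tested 40.1% passed in this comparison and 21% fell, so a fall by itself was common. Of the 4332 that fell, 117 had a larger change than DRM2 and 1063 a larger change than DYL1. The ranges of DRM2 and DYL1 did not overlap between the ages, as was the case for 26.1% of all genes in the same direction. The falls of DRM2 and DYL1 passed in all 16 alternative settings, with log2 changes from -3.19 to -2.49 and from -0.95 to -0.80. The direction of BRC1 rested on 3-week apex replicate 2, without which its mean there was 2.53 CPM and its log2 change 0.18 (adjusted p = 0.743, with a range of 0.396 to 0.811 over all alternatives). Because the genes were listed as high in these same 3-week libraries, the changes between ages are not independent of their choice.

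Between the 5-week apex and the leaf of the same age DYL1 was lower in the leaf and the difference of DRM2 did not pass. DYL1 was at 118 ± 19.8 CPM in the leaf (SD, n = 3), 1.33-fold below the apex, or -0.41 on the log2 scale (SE 0.10; edgeR adjusted p = 0.00146). DRM2 was at 22.1 ± 10.7 CPM in the leaf (SD, n = 3) and its log2 change was also -0.41, but with an SE of 0.29 and an edgeR adjusted p = 0.208, and an approximate 95% interval from -0.99 to 0.16. BRC1 was at 2.09 ± 1.52 CPM (SD, n = 3), a log2 change of -0.45 (SE 0.41; edgeR adjusted p = 0.323) with an interval from -1.24 to 0.35. Of all genes 79.1% passed in this comparison and 42% were lower in the leaf, so that the call for DYL1 is one that many genes share. Its ranges did not overlap, as for 42.3% of all genes in that direction. Of the 8657 genes lower in the leaf 7644 had a larger change than DYL1.

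Single libraries and the scaling decided 2 of these 3 values. Without 5-week apex replicate 1 the log2 change of DRM2 was 0.03 (adjusted p = 0.920), without 5-week apex replicate 2 it was -0.67 (adjusted p = 0.0335) and without leaf replicate 3 it was -0.87 (adjusted p = 0.0113), and over all alternatives the adjusted p ran from 0.000713 to 0.920. BRC1 passed without leaf replicate 2, whose removal took its leaf mean to 1.22 CPM and its log2 change to -1.23 (adjusted p = 0.0168, with a range of 0.00772 to 0.794 over all alternatives). With libraries scaled by total counts alone the median of all genes moved from -0.10 to -0.93 on the log2 scale, and DRM2, DYL1 and BRC1 were at -1.24, -1.24 and -1.27, all past the threshold. A change of scaling shifts all genes by nearly the same amount. The distance of a gene from that median therefore cannot show which scaling is right. In bulk samples fewer cells of a type and less RNA per cell cannot be told apart.

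Set against the 3-week apex, the leaf was lower in DRM2, at -3.15 on the log2 scale (SE 0.27; edgeR adjusted p = 1.99e-08) and in DYL1, at -1.32 (SE 0.10; edgeR adjusted p = 4.18e-09). Organ and age differ together here, and of all genes 74.9% passed, 38.3% were lower, and 40.4% were lower with no overlap of the groups, as DRM2 and DYL1 were. BRC1 had a log2 change of -0.68 (SE 0.40; edgeR adjusted p = 0.133), which passed without leaf replicate 2 (-1.46, adjusted p = 0.00577, with a range of 0.00382 to 0.566 over all alternatives). By group means the order was 3-week apex, 5-week apex, leaf for all 3 genes. All steps of that order passed for DYL1, only the first passed for DRM2, and neither passed for BRC1. The second step of DRM2 changed sign without 5-week apex replicate 1 (0.03), and the first of BRC1 without 3-week apex replicate 2 (0.18). The genes were listed as high in these 3-week libraries, so differences from that group are not independent of their choice.

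The ratio of 2 genes within a library does not depend on how libraries are scaled. The counts of DRM2 were 0.653, 0.695 and 0.647 of those of DYL1 at the 3-week apex, in replicates 1 to 3. The ratio was 0.275, 0.128 and 0.149 at the 5-week apex, while the leaf had 0.178, 0.124 and 0.243. Every 3-week library was thus above every other library, and the 5-week apex and the leaf overlapped. Both genes were listed as high in these 3-week libraries, so a difference from that group is not independent of their choice. How often the groups lie apart for other pairs of genes was not analysed here. The mean log2 ratio differed by -1.94 between the 5-week and the 3-week apex, with an SD of 0.586 at 5 weeks and 0.0557 at 3 weeks (exact permutation test over samples, two-sided, p = 0.1, the smallest that 3 against 3 allows, 0.225 adjusted over 9 tests).

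The counts of DRM2 were also high against those of BRC1 at the 3-week apex, with ratios of 67.0, 42.9 and 79.4. The ratios were 18.2, 5.77 and 8.17 at the 5-week apex, while the leaf had 12.8, 3.58 and 34.0, all below the 3-week libraries. The difference of the 5-week from the 3-week apex was -2.68 on the log2 scale (exact permutation test, two-sided, p = 0.1, again the smallest possible, 0.225 adjusted). For DYL1 over BRC1 the groups overlapped, with a difference between the ages of -0.75 on the log2 scale (exact permutation test, two-sided, p = 0.2, adjusted 0.36). As above, the genes were listed as high in these 3-week libraries, so these differences are not independent of their choice.

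**Figure D2:**
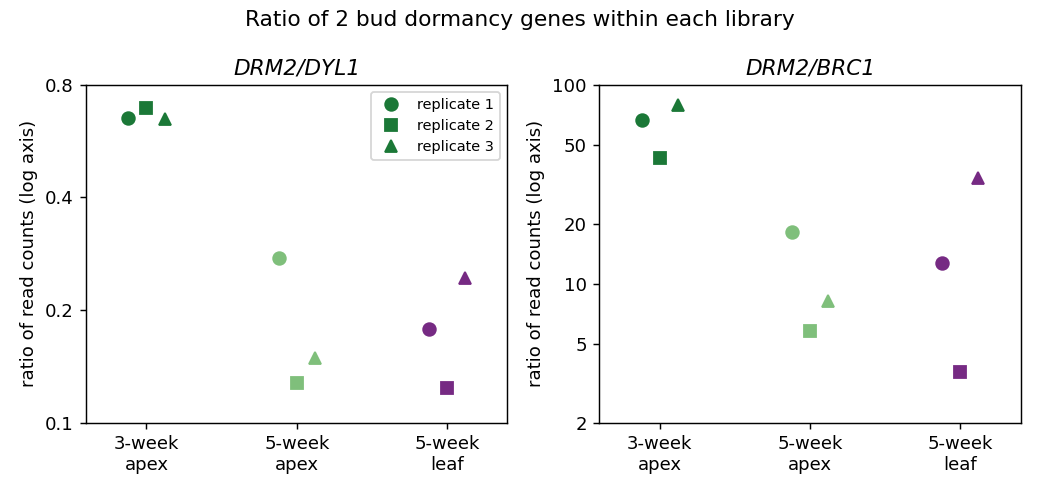
Ratio of the read counts of DRM2 to those of DYL1 (left) and of BRC1 (right) in each library, on log axes. The 3-week apex libraries lie at 0.647 to 0.695 and at 42.9 to 79.4, above every 5-week library in both panels.

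Other genes of the authors' lists had profiles close to those of DRM2 and DYL1 over the 9 libraries. Likeness was measured as the root mean square difference of log2 CPM, each gene centred on its own mean, among 712 listed genes with an Arabidopsis code and enough counts. The nearest to DRM2 were AT1G52000, of the mannose-binding lectin family, at 0.41, AT5G01210, of the HXXXD-type acyltransferase family, at 0.51, and AT5G19120, of the aspartyl protease family, at 0.56. AT1G52000 and AT5G01210 were, like DRM2, listed higher in the mutant in all 3 settings of the authors' deposited table. AT5G01210 was at 201, 184 and 180 CPM at the 3-week apex, 39.6, 18.0 and 30.7 CPM at the 5-week apex and 36.2, 35.8 and 45.7 CPM in the leaf. Its 5-week apex libraries had the same order as those of DRM2, with replicate 1 the highest and replicate 2 the lowest. AT1G52000 had that order too, whereas in AT5G19120 replicate 3 was the highest. These genes were picked for nearness over the same libraries, so a shared order partly follows from the pick. DYL1 itself was at a distance of 0.97 from DRM2 and BRC1 at 1.48.

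DYL1 changed less than DRM2 over the libraries, and the distance is not scaled for the size of a change. The profiles nearest to DYL1 lay closer, which may partly follow from that. They were AT2G27385, of the Pollen Ole e 1 allergen and extensin family, at 0.11, AT1G62660, of glycosyl hydrolase family 32 and placed in sucrose breakdown in the vacuole, at 0.17, and the cytochrome P450 gene CYP86A8 at 0.22. AT2G27385 was at 110, 115 and 125 CPM at the 3-week apex, 62.3, 60.0 and 64.7 CPM at the 5-week apex and 42.8, 37.6 and 51.0 CPM in the leaf, with the same step down and the same high leaf replicate 3 as DYL1. The nearest to BRC1 were SIB1 at 0.46, the mitochondrial carrier gene AT1G72820 at 0.46 and AT2G23790 at 0.47. None of these followed the high replicate 2 of BRC1 at the 3-week apex or in the leaf at its full size. These distances are descriptions of 9 libraries that share their groups. The genes were picked by them, so a shared pattern partly follows from the pick.

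**Figure D3:**
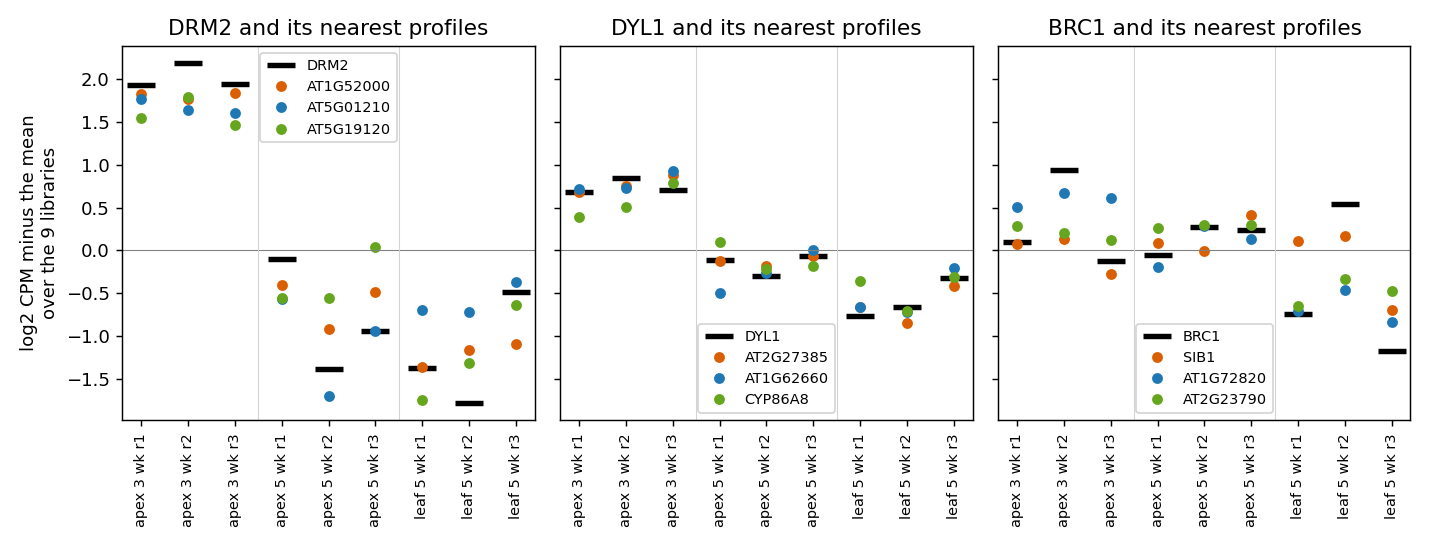
log2 CPM of DRM2, DYL1 and BRC1 (black bars) and of the 3 listed genes with the nearest profile to each (coloured points), each minus its own mean over the 9 libraries (r1 to r3 are replicates). The points lie within a root mean square of 0.41 to 0.56 of DRM2, 0.11 to 0.22 of DYL1 and 0.46 to 0.47 of BRC1.

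Of the other DRM family genes DRM3 was paired with an Arabis gene, and DRM4 and DRM5 were not analysed here. The authors' deposited table gave DRM3 (AT1G56220, Aa_G229990) a fold of 2.8 at the 3-week apex. It was at 65.4, 74.2 and 65.9 CPM at the 3-week apex, 25.5, 28.1 and 28.4 CPM at the 5-week apex and 53.9, 55.9 and 57.7 CPM in the leaf. Like DRM2 and DYL1 it fell between the ages, with -1.33 on the log2 scale (SE 0.07; edgeR adjusted p = 3.88e-09). This fall is not independent of the listing at the 3-week apex, through which alone DRM3 was paired. It was higher in the leaf than in the 5-week apex, where DYL1 was lower and DRM2 did not pass, by 1.03 (SE 0.08; edgeR adjusted p = 2.28e-09), or 0.20 with libraries scaled by total counts alone.

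Of 15 other regulators of branching on the list used here 2 were paired with an Arabis gene, HB53 and NCED3, and both lie downstream of BRC1 in Arabidopsis. For HB53 (AT5G66700) the authors' deposited table gave a fold of 8.07 at the 3-week apex, on 21.9 normalised counts in the mutant. It was at 1.5, 1.43 and 1.53 CPM at the 3-week apex and at 0.193, 0.467 and 0.0661 CPM at the 5-week apex. Those 5-week values lie near the floor. HB53 was paired only because it was listed higher at the 3-week apex, so a fall from that group is not independent of the listing. It fell between the ages by -2.58 (SE 0.48; edgeR adjusted p = 5.92e-04) on the log2 scale, and by -3.42 without 5-week apex replicate 2 (adjusted p = 4.50e-04, with a range of 4.15e-04 to 0.00446 over all alternatives). NCED3 (AT3G14440), to which the authors' deposited table gave a fold of 2.17 in the leaf, showed no such change at the apex, from 1.04 ± 0.172 to 0.854 ± 0.282 CPM (SD, n = 3 each; edgeR adjusted p = 0.543). It was at 17.3, 14.9 and 11.4 CPM in the leaf, above every apex library. The log2 change of NCED3 from the 5-week apex was 4.07 (SE 0.25; edgeR adjusted p = 1.82e-10). NCED3 was paired only because it was listed higher in the mutant leaf, so its higher leaf level is not independent of the listing either. HB53 in the leaf was at 0.221, 0.106 and 0 CPM, and its difference from the 5-week apex did not pass (-1.08, SE 0.92; edgeR adjusted p = 0.294). That value rested on single libraries, being -0.24 without 5-week apex replicate 2, -0.55 without leaf replicate 3 and -1.98 without leaf replicate 1, with adjusted p-values from 0.0615 to 0.839 over all alternatives.

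Genes induced by darkness or sugar shortage fell at the apex, as DRM2 and DYL1 did. Of 16 such genes 7 were paired with an Arabis gene, and all 7 were listed higher in the mutant at the 3-week apex in the authors' deposited table, 1 at the 5-week apex and 2 in the leaf. All 7 fell from the 3-week to the 5-week apex, with a median log2 change of -1.48 against 0.01 over all genes tested, of which 21% fell, and all 7 fell in each of the 16 alternatives. The list was paired through lists made partly on these 3-week libraries, so this count is not independent evidence of its direction. ASN1, an asparagine synthase gene, was at 242, 280 and 232 CPM at 3 weeks and 28.9, 18.1 and 25.7 CPM at 5 weeks, a log2 change of -3.37 (SE 0.33; edgeR adjusted p = 1.44e-06). SEN1, a marker of darkness and senescence, changed by -3.01 (SE 0.21; edgeR adjusted p = 4.82e-08), and DIN10, a raffinose metabolism gene, by -2.79 (SE 0.15; edgeR adjusted p = 3.26e-09). TPS9 and TPS11, of the trehalose phosphate synthase family, changed by -1.48 and -1.32, BCAT2, of branched-chain amino acid turnover, by -1.35, and BT2 by -1.07. Replicate 2, the highest 3-week apex library for all 3 dormancy genes, was also the highest for 5 of these 7. At the 5-week apex replicate 1, the highest for DRM2, was the lowest for 4 of the 7. Replicate 3 of that group, the highest for DYL1, was the highest for 5 of the 7. How often a replicate was the highest over all genes was not analysed here, so these counts have no reference.

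Between leaf and apex the counts of this list depended on the age of the apex. Of the 7 genes 6 were higher in the leaf than in the 5-week apex, as were 37.1% of all genes, and 1, BCAT2, was lower, at -4.01 (SE 0.37; edgeR adjusted p = 4.05e-08). DIN10 was higher by 2.01 (SE 0.15; edgeR adjusted p = 1.81e-09) and SEN1 by 1.38 (SE 0.24; edgeR adjusted p = 6.61e-05). ASN1 was higher by 1.67 (SE 0.34; edgeR adjusted p = 2.62e-04), on leaf values of 44.0, 44.3 and 144 CPM. Replicate 3 carried much of that, and without it the log2 change was 0.86 (adjusted p = 4.74e-05, with a range of 3.68e-06 to 0.0266 over all alternatives). Replicate 3 was also the highest leaf library for DRM2 and DYL1. Among the 7 genes it was the highest for 3, and replicates 1 and 2 were the highest for 2 each. The median log2 change of the list was 1.34, against -0.10 over all genes tested. Against the 3-week apex, by contrast, 5 of the 7 were lower in the leaf, 0 were higher and 2, TPS9 and TPS11, did not pass, with a median of -0.79 against -0.03 over all genes, of which 38.3% were lower. DRM2 and DYL1 were also lower in the leaf in that comparison, and no test compared the list with the dormancy genes. All 7 genes, like DRM2 and DYL1, were listed as high in these same 3-week libraries. A lower level in the leaf than in those libraries is therefore not independent of the listing. BT2, higher by 0.46, was at -0.38 with libraries scaled by total counts alone, which left 5 genes higher.

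**Figure D4:**
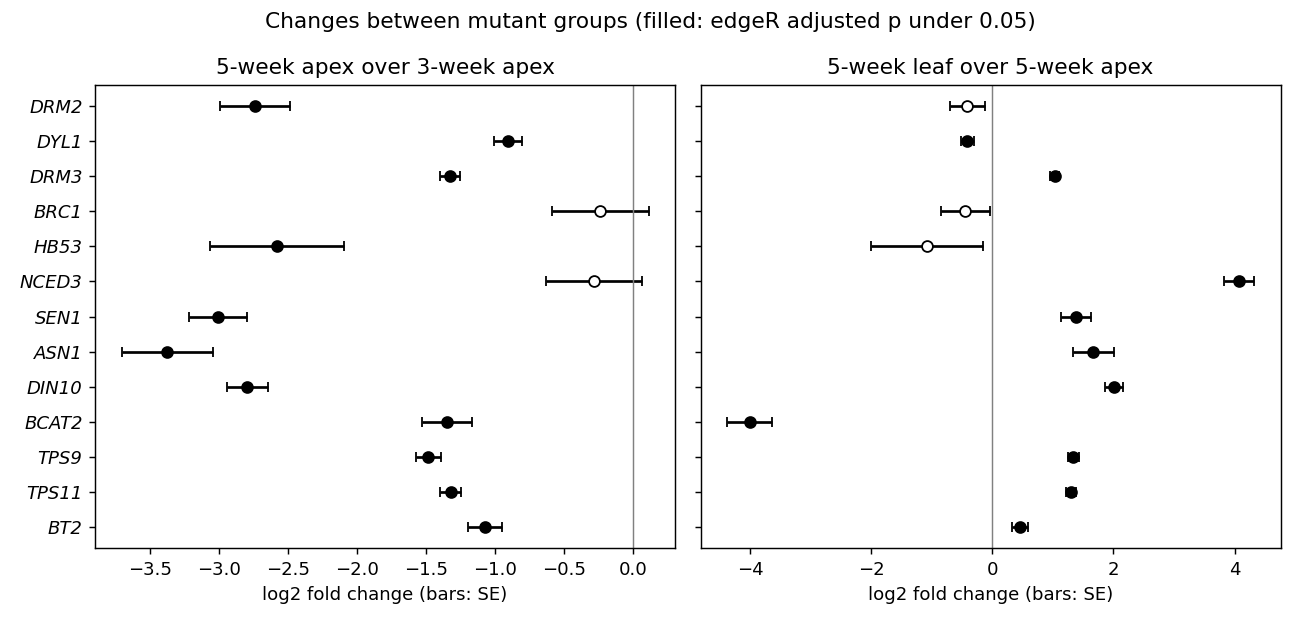
log2 fold change with its SE (n = 3 libraries per group) of the 3 dormancy genes, DRM3, HB53, NCED3 and the 7 dark-induced and sugar-starvation genes between the apex ages (left) and between leaf and apex at 5 weeks (right), the axes differing in range. Filled points passed an edgeR adjusted p of 0.05. All genes shown lie below 0 on the left, where BRC1 and NCED3 did not pass. On the right DRM2, DYL1, BRC1, HB53 and BCAT2 lie below 0. DRM3, NCED3 and 6 of the 7 dark-induced genes lie above it there under TMM scaling, with BT2 below 0 under total counts.

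Markers of other cell types also differed between the groups. Each was paired only because the authors listed it as different between mutant and control, so its levels are not independent of the listing. In the authors' deposited table PDF1 and TMM had folds of 54.37 and 6.33 in the leaf. The xylem markers LAC4 and LAC17 were also listed higher there and KAT1 lower, while SUC2 was listed higher at the 5-week apex. The 2 paired leaf mesophyll markers of 6, LHCB2.1 and CA1, summed to 203 to 300 CPM at the 3-week apex, 137 to 424 at the 5-week apex and 16092 to 16698 in the leaf. CA1 alone was at 4.90 to 32.4 CPM at the 3-week apex and 0.322 to 0.991 CPM at the 5-week apex. SUC2, the 1 paired phloem marker of 2, was at 23.6 to 29.4 CPM at the 3-week apex, 8.67 to 15.5 at the 5-week apex and 302 to 335 in the leaf. The 2 paired xylem markers of 3 summed to 31.1 to 33.2, 12.4 to 27.4 and 76.8 to 139 CPM in these groups. PDF1, the 1 paired epidermal marker of 2, was at 1174 to 1409, 647 to 836 and 2.87 to 39.2 CPM. The stomatal lineage marker TMM was at 15.8 to 18.8, 7.14 to 11.03 and 1.91 to 6.25 CPM, and the guard cell marker KAT1 (1 of 2 paired) at 1.93 to 3.68, 3.42 to 4.07 and 2.57 to 3.76 CPM. The 8 markers of the shoot meristem were not analysed here, so the apex label was checked only through the low leaf markers. Both were paired through the apex lists of the authors' deposited table, LHCB2.1 as lower at 5 weeks (fold 0.492) and CA1 as higher at 3 weeks (2.44). That check is therefore not independent of the listing. The part of these cell types in the results above was not tested.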

How the data were processed

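Integer read counts per gene entry were deposited by the authors for the 9 mutant libraries, with 34220 gene entries and 5 special entries. Reads outside genes took 7.94% to 16.3% and ambiguous reads 2.78% to 3.37% of each library and were left out. Per the labels' protocols, polyadenylated RNA was sequenced from a directional library kit as single reads of 100 bases. Per the submitters' processing notes the tools were STAR, HTSeq 0.5.4p1, DESeq and DESeq2, with no role or order given. Genome build: not given in the sources used here, nor is the annotation, and no sequence or coordinate is printed.

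Another 6 tables deposited by the authors list genes that differ between mutant and control. Per the file headers each gives a fold (the ratio of the mutant to the control mean), its log2, an adjusted p-value and mean signals of normalised counts, as made by the authors. The 6 control-mean columns belong to no sample here and stayed unused. Gene names came from the lists, and 1 gene ID listed 2 times in the leaf was counted once.

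Counts went into edgeR 4.0.16 (R 4.3.3; TMM, filterByExpr, quasi-likelihood F-test, 3 groups in 1 model), with Benjamini-Hochberg adjustment over the 20633 genes kept at 0.05. SE is the size of the log2 change divided by root F, and approximate 95% intervals are the change ± 1.96 SE. The test was checked on simulated counts with known changes. Far fewer genes changed in that simulation than passed in these comparisons, so it does not show how test or scaling behave when most genes differ. Ratios of 2 genes were tested by exact permutation of samples. Profiles used a prior of 3 counts and genes whose average log2 CPM reached 2, and the 3 nearest to each member were named. Other named genes are those of fixed lists that the authors' lists pair with an Arabis gene. Members and lists were chosen with earlier results of these data known. Alternatives were RLE and total-count scaling, no filter, DESeq2 1.42.0, limma 3.58.1 with voom, only the groups compared, a replicate block, leaving out each library, a stricter 0.01 for the authors' lists and a prior of 1 count for ratios. Other software was Python 3.11.15 with scipy 1.17.1, numpy 2.4.6, pandas 2.3.3 and matplotlib 3.10.9.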

Additional observations from a re-analysis of the deposited data

How the results depend on the processing

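Over all results and alternatives 736 values kept their direction and side of the threshold (counts within 1.5 times). Another 8 passed only under the alternative, and 3 changed sign. No called value fell short of the threshold, but the call of BT2 was turned round. It was called higher in the leaf than in the 5-week apex, and lower by total counts (edgeR adjusted p = 0.0160). By total counts alone the leaf against the 5-week apex gave -1.24 for DRM2 (adjusted p = 7.13e-04) and -1.27 for BRC1 (0.00772), the leaf against the 3-week apex -1.40 for BRC1 (0.00382), and BT2 changed sign to -0.38. Leaving out 1 library, the log2 change from the 5-week apex to the leaf ran from -0.87 to 0.03 for DRM2 and from -1.23 to -0.12 for BRC1, that from the 3-week apex to the leaf from -1.46 to -0.28 for BRC1, and that between the ages from -0.45 to 0.18 for BRC1, the sign changing at 0.18 (without 3-week apex replicate 2) and 0.027 (without 5-week apex replicate 1). Why single libraries differ was not tested.

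The share of calls that were higher was 47.6% between the ages, against 66.2% by total counts and 37.2% with DESeq2. It was 46.9% for the leaf against the 5-week apex (22.0% by total counts) and 48.9% against the 3-week apex (22.8%). The median of all genes moved from 0.01 to 0.12 between the ages and from -0.03 to -0.76 between 3-week apex and leaf by total counts.

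Replicates of the same number did not deviate together, with correlations over genes of -0.0771 to 0.0076, and 0 of 9 libraries correlated best with their own number. Whether samples of the same number share a plant or a harvest is not given in the labels, and these correlations cannot decide it. With a replicate block 7681 genes passed between the ages against 8265, and the log2 change of DRM2 was -2.80, and no call for the 3 dormancy genes changed. The counts of BRC1, 9 to 75 per library, limit what can be seen for that gene.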

Other observations

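Of 11 auxin-induced genes 4 were paired with an Arabis gene, and 3 fell from the 3-week to the 5-week apex, where 21% of all genes fell. All 4 were higher in the leaf than in the 5-week apex, as were 37.1% of all genes. IAA29, an auxin response repressor gene, was at 5.48, 4.77 and 5.05 CPM at the 3-week apex, 0.322, 0.734 and 0.132 CPM at the 5-week apex and 96.1, 99.8 and 91.4 CPM in the leaf. Its log2 change between the ages was -3.66 (SE 0.27; edgeR adjusted p = 7.07e-08), and -4.43 without 5-week apex replicate 2 (adjusted p = 4.79e-08, with a range of 1.30e-22 to 5.04e-06 over all alternatives). IAA1 changed by -1.62 (SE 0.16; edgeR adjusted p = 1.52e-06) and IAA19 by -0.58 (SE 0.10; edgeR adjusted p = 4.39e-04). GH3.1, which conjugates auxin, had a log2 change of -1.16 (SE 0.57; edgeR adjusted p = 0.116), and passed without 5-week apex replicate 3 (-2.05, adjusted p = 0.0295, with a range of 0.0295 to 0.395 over all alternatives). IAA1 and IAA29 were listed higher in the mutant at the 3-week apex in the authors' deposited table, so these falls are not independent of the listing. IAA19 and GH3.1 were paired only because they were listed higher in the mutant leaf, where IAA29 was listed too, so the count of 4 in the leaf is not independent either.

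Of 16 abscisic acid genes 2 were paired, NCED3 and CYP707A3, which breaks abscisic acid down. CYP707A3 was at 6.46, 3.40 and 3.92 CPM at the 3-week apex and 0.902, 0.601 and 2.31 CPM at the 5-week apex, a log2 change of -1.85 (SE 0.36; edgeR adjusted p = 7.92e-04), and of -2.60 without 5-week apex replicate 3 (adjusted p = 9.90e-05, with a range of 1.02e-05 to 0.00666 over all alternatives). In the leaf it was at 5.30, 6.05 and 6.92 CPM, a log2 change of 2.25 from the 5-week apex (SE 0.37; edgeR adjusted p = 3.09e-05), and of 2.99 without 5-week apex replicate 3 (adjusted p = 2.35e-06, with a range of 8.48e-09 to 0.00190 over all alternatives). The authors' deposited table listed it lower in the mutant leaf than in the control, with a fold of 0.126 (adjusted p = 4.31e-31). Of 15 cell division genes 1 was paired, the mitotic cyclin gene CYCB1;3. It went from 54.6 ± 2.48 to 41.2 ± 7.11 CPM between the ages (SD, n = 3 each), a log2 change of -0.41 (SE 0.11; edgeR adjusted p = 0.00746), and to 7.89 ± 1.77 CPM in the leaf. The 1 paired flower marker of 4, AG, was too low to be tested.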
